A study of Mus musculus with 26 samples.

Results

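The 77 genes described here encode the mitochondrial ribosomal proteins: the protein-coding genes whose symbols begin with Mrpl (48 genes, large subunit) or Mrps (29 genes, small subunit) followed by a number. They were found by symbol among 45318 genes in the RNA-seq count files, of which 21578 are protein-coding. A further 5 genes that carry such a symbol are not protein-coding and were left out. Membership used the symbol alone and no measured value.

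The mitochondrial ribosome translates the few mRNAs of the mitochondrial DNA, which encode core subunits of the respiratory chain. Its rRNAs come from the mitochondrial DNA, whereas all its proteins are made from nuclear genes, translated in the cytosol and imported. The small subunit binds the mRNA and decodes it, and the large subunit joins the amino acids. Some proteins have relatives in bacterial ribosomes and others are found only in mitochondria. The letter S or L of a symbol follows the first assignment of the protein: the proteins of Mrps18a and Mrps30 sit in the large subunit, and that of Mrps36 is a component of the 2-oxoglutarate dehydrogenase complex.

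RNA-seq was performed on polyadenylated RNA from 4T1 cells, a mammary carcinoma line of BALB/c mice, grown as cultured cells. Control cells, labelled wild type, had received a guide RNA against Renilla luciferase (2 libraries). KO1 (3 libraries) and KO2 (4 libraries), labelled MaTAR25-/-, are each a clone grown from a single cell after a CRISPR/Cas9 deletion over the start of MaTAR25, a nuclear lncRNA gene also known as 1200007C13Rik. The comparisons ask how mRNA levels differ between cells without MaTAR25 and control cells, and between the clones. With 1 clone for each deletion, an effect of the deletion and a property of the clone cannot be told apart within a clone. The labels do not say whether the control libraries come from 1 clone, several clones or a pool, or whether libraries of a group came from separate cultures, so p-values measure the spread between these libraries.

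MaTAR25 was read at 0.768 and 0.915 CPM (counts scaled to a common library total) in the control libraries and at 0 to 0.307 CPM in the 7 KO libraries. Libraries held 25367211 to 61110585 counts on genes, and a further 33.9 to 37.0% of all counts in the files were assigned to no gene. The mammary epithelium markers summed to 3719 to 3902 CPM in control, 5053 to 7330 CPM in KO1 and 2194 to 4532 CPM in KO2 libraries, and all 6 were detected. The higher sum in KO1 lay in Krt7 and Krt8 (log2 fold changes of 1.90 and 1.32, edgeR adjusted p = 0.00468 and 0.0232), while the other 4 did not pass in KO1 and the median over the 6 was -0.04. Cdh1 fell in KO (-0.65, edgeR adjusted p = 0.0684). The leukocyte markers summed to at most 9.54 CPM, the endothelium markers to at most 1.56 CPM, and the fibroblast markers to at most 46.9 CPM, with 2 of the 4 at 0 in every library. In bulk RNA, fewer cells of a type and less RNA per cell cannot be told apart. The part of the epithelial marker difference between the clones in the results below was not tested.

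The sequences upstream of the members that the results turn on are shown first, since these genes lie on many chromosomes and have no common position. RefSeq promoter windows (GRCm38.p6), from 250 bases before to 50 bases after a start site, were found by symbol for 68 of the 77 members. Each is printed 5′ to 3′ on the strand of its gene, and capitals mark the letters of 5 motifs searched on both strands: GCATGCGC for NRF1, CCGGAAG for the ETS family, AAGATGGC for YY1, CACGTG for the E-box that Myc binds, and GGGCGG for the GC box. NRF1, GABP (an ETS factor) and YY1 are known regulators of nuclear genes for mitochondrial proteins. Mrpl18 (chr17:12916042-12916341, minus strand) and Mrpl42 (chr10:95501900-95502199, minus strand) are those of the 5 large subunit genes with the highest fold changes whose windows held a match. Mrps12 (chr7:28741772-28742071, minus strand) and Mrps11 (chr7:78782881-78783180, plus strand) are shown for the small subunit, as 2 of its 5 genes with the highest fold changes. What the windows of the others, Mrps6, Mrps24 and Mrps36, hold is not given here. Mrpl9 (chr3:94443086-94443385, plus strand) is a member that fell.
Mrpl18: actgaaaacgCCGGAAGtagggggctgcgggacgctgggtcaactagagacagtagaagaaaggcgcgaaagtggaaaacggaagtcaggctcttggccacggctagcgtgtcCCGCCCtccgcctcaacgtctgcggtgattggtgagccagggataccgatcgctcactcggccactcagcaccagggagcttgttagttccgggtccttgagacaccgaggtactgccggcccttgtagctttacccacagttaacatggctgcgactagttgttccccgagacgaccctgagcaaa
Mrpl42: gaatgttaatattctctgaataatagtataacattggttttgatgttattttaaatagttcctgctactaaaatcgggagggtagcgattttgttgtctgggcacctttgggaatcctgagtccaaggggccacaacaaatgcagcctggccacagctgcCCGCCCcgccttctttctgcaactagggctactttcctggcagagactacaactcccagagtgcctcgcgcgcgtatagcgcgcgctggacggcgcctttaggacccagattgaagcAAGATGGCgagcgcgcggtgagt
Mrps12: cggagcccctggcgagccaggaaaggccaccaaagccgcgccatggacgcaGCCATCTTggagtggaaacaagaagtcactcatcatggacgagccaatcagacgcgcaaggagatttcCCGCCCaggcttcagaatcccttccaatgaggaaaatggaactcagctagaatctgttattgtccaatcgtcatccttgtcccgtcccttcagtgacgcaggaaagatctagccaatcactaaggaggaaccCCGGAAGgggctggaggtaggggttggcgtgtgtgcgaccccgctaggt
Mrps11: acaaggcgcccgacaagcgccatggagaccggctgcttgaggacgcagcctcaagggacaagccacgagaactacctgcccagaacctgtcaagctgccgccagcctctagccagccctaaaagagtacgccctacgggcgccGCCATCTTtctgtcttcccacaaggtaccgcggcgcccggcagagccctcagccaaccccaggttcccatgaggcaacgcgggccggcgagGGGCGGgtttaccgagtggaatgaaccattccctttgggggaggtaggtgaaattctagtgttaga
Mrpl9: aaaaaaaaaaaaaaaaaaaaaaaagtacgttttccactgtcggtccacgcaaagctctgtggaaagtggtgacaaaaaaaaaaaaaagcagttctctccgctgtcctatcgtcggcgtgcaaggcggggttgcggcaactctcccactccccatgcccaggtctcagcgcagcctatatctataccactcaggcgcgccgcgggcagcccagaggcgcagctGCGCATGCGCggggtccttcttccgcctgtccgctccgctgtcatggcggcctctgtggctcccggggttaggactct

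In Mrpl18 the capitals are an ETS and a GC box match, in Mrpl42 a GC box and a YY1 match, in Mrps12 a YY1, a GC box and an ETS match, and in Mrps11 a YY1 and a GC box match. The capitals of Mrpl9 are an NRF1 match on each strand that overlap. The promoters of Mrpl12, Mrpl16, Mrpl41 and Mrpl24 held none of the 5 strings, which says only that these letters are not in those windows. Over the 68 members, the YY1 string was present in 17.6% against 5.30% of 9879 protein-coding genes that were both tested for expression and given a promoter. The ETS string was present in 36.8% against 20.1%, and the NRF1 string in 10.3% against 5.98%. The E-box was present in 7.35% of members against 11.5%, and the GC box in 50% against 68.6%. Over all genes with a promoter window the shares were 3.19% for YY1, 9.93% for ETS, 3.05% for NRF1, 8.09% for the E-box and 38.2% for the GC box. The YY1 string stood in 6 of 42 large and 6 of 26 small subunit promoters, and the ETS string in 14 and 11. With other strings for NRF1 and ETS the difference was not seen. GCATGC, a shorter part of the NRF1 string, was in 11.8% of members and 11.4% of genes. GGAAGT, an ETS string that overlaps CCGGAAG but is not part of it, was in 30.9% and 31.9%. No other string was tried for YY1, the E-box or the GC box. These matches are a description of letters and not of binding.

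In control cells the members were read at a mean of 4.40 to 112 CPM, with a median of 34.0 CPM over 76 members. Per kb of exon, Mrpl2 (55.3 CPM per kb) and Mrpl52 (43.3 CPM per kb) had the highest control levels of the large subunit, and Mrps21 (37.1 CPM per kb) and Mrps28 (32.6 CPM per kb) of the small subunit. Mrpl53 was read at 0 to 0.122 CPM in the 9 libraries and did not enter the fit. In the annotation, 88.0% of its exon bases also belong to the genes Ccdc142os and Gm42688. The other 76 members all passed the filter on low counts.

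Most members were higher in the KO cells than in control cells. Summed over the 77 members, the level was 2665 and 2730 CPM in the control libraries, 3857, 3608 and 4185 CPM in KO1, and 3266, 3474, 3820 and 3034 CPM in KO2. All 7 KO libraries lay above both controls, and KO2 replicate 3 lay within the KO1 range. The mean was 2698 CPM ± 46.1 (SD, n = 2) in control and 3606 CPM ± 388 (SD, n = 7) in KO libraries. The large subunit summed to 1764 and 1810 CPM in control and 2057 to 2827 CPM in KO libraries, and the small subunit to 901 and 920 CPM in control and 977 to 1358 CPM in KO libraries. For comparison, the summed level of the genes that match the symbol pattern of cytosolic ribosomal proteins was 50314 and 51060 CPM in control and 47068 to 53270 CPM in KO libraries, which overlap.

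**Figure D1:**
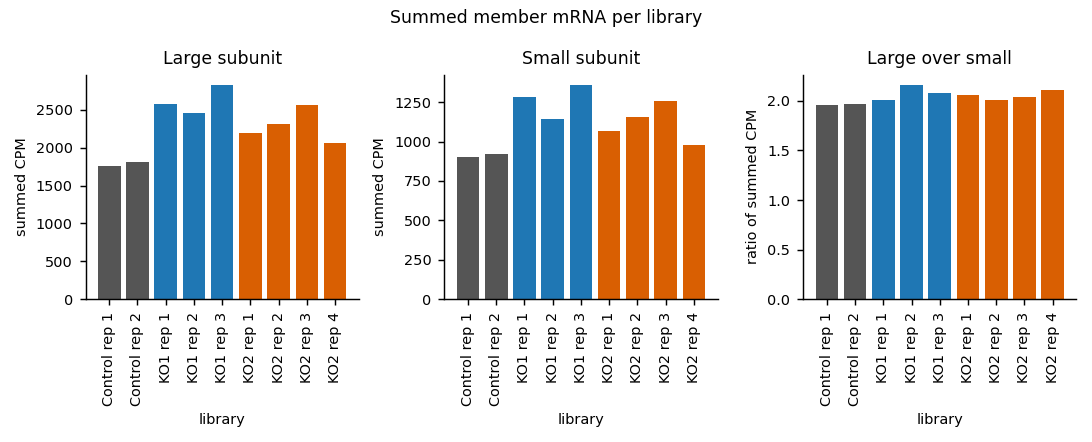
Summed CPM of the 48 large and 29 small subunit genes, and their ratio, in each of the 9 libraries (bars: grey control, blue KO1, orange KO2). All KO bars lie above both control bars in each panel, and the ratio ranges from 1.96 to 2.16.

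The sum for the large subunit divided by that for the small subunit was 1.96 and 1.97 in control, 2.01, 2.16 and 2.08 in KO1, and 2.06, 2.01, 2.03 and 2.11 in KO2 libraries. The lowest KO library was above both controls, by less than the spread among KO libraries (2.06 ± 0.0554, SD, n = 7). With the proteins placed by structure (Mrps18a and Mrps30 moved to the large subunit and Mrps36 left out), the ratio was 2.17 and 2.17 in control and 2.20 to 2.34 in KO libraries.

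Of the 76 members tested, 25 rose and 2 fell in the 7 KO libraries against control, by edgeR's quasi-likelihood test at a Benjamini-Hochberg adjusted p under 0.1. Over all 15023 genes tested, 11.9% were called higher and 10.7% lower, against 32.9% and 2.63% of the members. The median log2 fold change was 0.41 over the members and 0.06 over all genes, and 63 of the 76 members were above 0. In the large subunit 19 of 47 rose and 2 fell, with a median log2 fold change of 0.49. In the small subunit 6 of 29 rose and none fell, with a median of 0.36, and none was lower at an unadjusted p under 0.05 by edgeR or was called lower by DESeq2. The difference between the subunit medians, 0.13, was given no test. All 7 KO libraries were higher than both controls for 35 members and lower for 5, where 16.9% and 17.6% of all genes tested did the same.

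The called counts depended on both control libraries. Without control replicate 1, 3 members were called higher and none lower by edgeR, and without control replicate 2, 4 and none. Calls fell over all genes in these fits, to 1.26% higher and 1.69% lower without control replicate 1, and to 1.57% and 2.04% without control replicate 2. At an unadjusted p under 0.05, 2 members were lower without control replicate 1 and none without control replicate 2. No small subunit gene was called higher without either control library, where 5 were higher at an unadjusted p under 0.05. The shares of all genes at this unadjusted p are not given here. DESeq2, run on all 9 libraries, called 32 members higher and 2 lower, and the share of all genes that it called is not given here. The median log2 fold change over the members lay between 0.38 and 0.45 when any single library was left out.

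**Figure D2:**
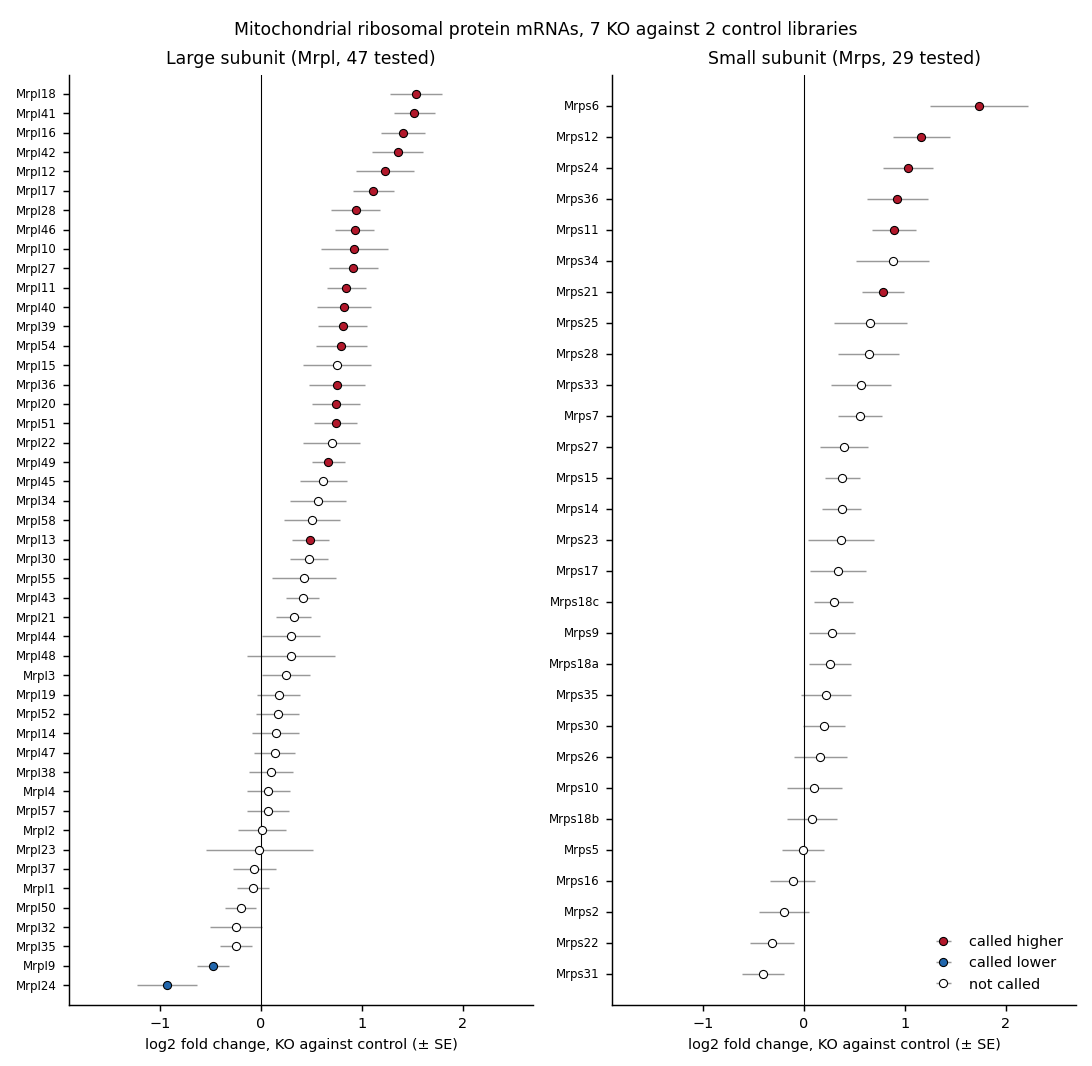
Log2 fold change of KO against control for each member tested, with its standard error, ordered by size (47 large subunit genes at left, 29 small subunit genes at right). Filled points passed the adjusted p threshold of 0.1 (red higher, blue lower), which 25 members did upwards and 2 downwards.

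Mrpl18 (chr17:12911349-12916345, 10.1% of exon bases shared with Tcp1), the relative of the bacterial ribosomal protein L18, had the highest fold change of the large subunit. It was read at 17.5 and 17.8 CPM in control, 51.2, 42.9 and 69.6 CPM in KO1, and 57.8, 44.7, 56.0 and 36.2 CPM in KO2. The lowest KO library was above both controls, and the log2 fold change was 1.54 ± 0.26 (SE, edgeR adjusted p = 0.00484). Mrpl41 (chr2:24974117-24975098), a protein found in mitochondrial but not bacterial ribosomes, was read at 11.5 and 11.1 CPM in control, 28.4, 26.6 and 30.4 CPM in KO1, and 37.3, 31.5, 34.8 and 38.3 CPM in KO2. Every KO2 library was above every KO1 library. Its log2 fold change was 1.52 ± 0.21 (SE, edgeR adjusted p = 0.00231), and the difference between the clones did not pass (adjusted p = 0.175).

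Mrpl16 (chr19:11770391-11774960), whose bacterial relative lies near the site where peptide bonds form, was read at 21.1 and 19.5 CPM in control, 54.5, 52.9 and 54.8 CPM in KO1, and 44.7, 68.5, 60.0 and 41.2 CPM in KO2. KO1 libraries lay close together, within the range of KO2. The log2 fold change was 1.41 ± 0.22 (SE, edgeR adjusted p = 0.00369). Mrpl42 (chr10:95480805-95501940), a protein particular to mitochondrial ribosomes, was read at 38.3 and 36.2 CPM in control, 90.9, 82.4 and 135 CPM in KO1, and 78.8, 103, 107 and 71.0 CPM in KO2. All KO libraries were above both controls (log2 fold change 1.36 ± 0.25, SE, edgeR adjusted p = 0.00776).

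Mrpl12 (chr11:120484613-120489065) encodes the protein of the stalk that contacts translation factors. It was read at 38.5 and 40.3 CPM in control, 114, 101 and 124 CPM in KO1, and 72.2, 66.7, 106 and 65.8 CPM in KO2. KO2 replicate 3 reached the KO1 range and the other 3 KO2 libraries lay between control and KO1. The log2 fold change was 1.24 ± 0.29 (SE, edgeR adjusted p = 0.0186), and KO2 was lower than KO1 (log2 difference -0.54, adjusted p = 0.0861). Of its exon bases 13.1% are shared with Gm16755.

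Each of these 5 genes reached p = 0.0278 in the two-sided exact permutation test on log2(CPM + 1), the smallest value that 7 against 2 libraries allow (36 splits). They were picked by fold change in these same libraries, so this p is not independent support. All 7 KO libraries were above both controls for 16.9% of all genes tested and below for 17.6%. The test also treats libraries of the same clone as separate units. The calls of Mrpl12 and Mrpl42 were lost without either control library, with edgeR adjusted p of 0.187 and 0.164 for Mrpl12 and 0.106 and 0.114 for Mrpl42. The other large subunit genes called higher were Mrpl10, Mrpl11, Mrpl13, Mrpl17, Mrpl20, Mrpl27, Mrpl28, Mrpl36, Mrpl39, Mrpl40, Mrpl46, Mrpl49, Mrpl51 and Mrpl54. They had log2 fold changes from 0.49 (Mrpl13) to 1.12 (Mrpl17).

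**Figure D3:**
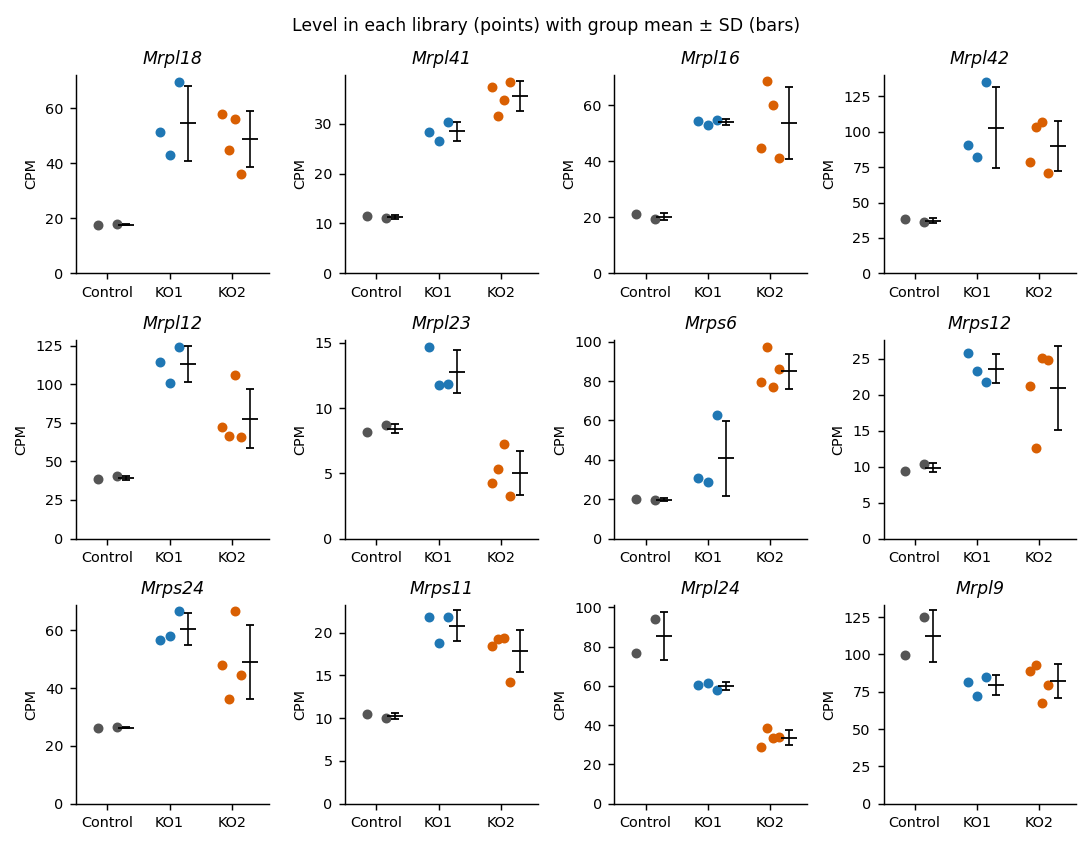
CPM in each library for 12 members (points: grey control, n = 2, blue KO1, n = 3, orange KO2, n = 4) with the group mean and SD beside them. Mrpl18, Mrpl41, Mrpl16, Mrpl42, Mrpl12, Mrps6, Mrps12, Mrps24 and Mrps11 lie above control in all KO libraries, Mrpl24 and Mrpl9 below, and Mrpl23 above control in KO1 and below in KO2.

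In the small subunit, Mrps6 (chr16:92058270-92112227), the relative of the bacterial protein S6, had the highest fold change of all members. It was read at 20.2 and 19.4 CPM in control, 30.8, 28.9 and 62.6 CPM in KO1, and 79.5, 97.1, 77.2 and 86.4 CPM in KO2. KO1 replicate 3 stood apart from the other KO1 libraries, and all KO2 libraries were higher than all KO1 libraries. The log2 fold change was 1.74 ± 0.49 (SE, edgeR adjusted p = 0.0380) in KO, 1.04 for KO1 alone (adjusted p = 0.0413) and 2.10 for KO2 alone (adjusted p = 0.00300). Without KO1 replicate 3 the value for KO1 was 0.59 (adjusted p = 0.0667), and without control replicate 1 or 2 its adjusted p was 0.187 or 0.204. KO2 was higher than KO1 (log2 difference 1.06, adjusted p = 0.0327), and without KO1 replicate 1 or 2 this adjusted p was 0.119 or 0.137.

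The gene model of Mrps6 overlaps Slc5a3, a transporter of myo-inositol on the same strand of chromosome 16, and 19.9% of the exon bases of Mrps6 are shared with Slc5a3 and a gene known by identifier only. Slc5a3 was read at 19.8 and 18.9 CPM in control, 27.1, 25.5 and 77.9 CPM in KO1, and 92.0, 146, 174 and 178 CPM in KO2. It was higher in the same libraries as Mrps6, KO1 replicate 3 included. Its part in the counts of Mrps6 was not tested.

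Mrps12 (chr7:28739641-28741820), whose bacterial relative lies at the decoding site, was read at 9.37 and 10.3 CPM in control, 25.7, 23.3 and 21.8 CPM in KO1, and 21.2, 12.5, 25.03 and 24.8 CPM in KO2. KO2 replicate 2 was the lowest KO library and was still above both controls (log2 fold change 1.16 ± 0.28, SE, edgeR adjusted p = 0.0212). Mrps24 (chr11:5703983-5715680, 15.4% of exon bases shared with Urgcp) was read at 26.2 and 26.5 CPM in control, 56.6, 57.9 and 66.7 CPM in KO1, and 48.1, 36.3, 66.5 and 44.7 CPM in KO2, with a log2 fold change of 1.03 ± 0.25 (SE, edgeR adjusted p = 0.0203). All KO libraries were above both controls, and KO2 replicate 3 lay within the KO1 range.

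Mrps36 (chr13:100735955-100744659), the component of the 2-oxoglutarate dehydrogenase complex, was the member with the lowest counts among those called. It was read at 4.81 and 4.00 CPM in control, 7.04, 6.60 and 7.55 CPM in KO1, and 7.81, 8.97, 8.50 and 12.1 CPM in KO2 (log2 fold change 0.93 ± 0.30, SE, edgeR adjusted p = 0.0668). Mrps21, which has a bacterial relative in S21, was read at 22.5 and 32.3 CPM in control, 49.3, 38.4 and 53.0 CPM in KO1, and 55.5, 50.5, 39.6 and 43.9 CPM in KO2 (log2 fold change 0.78 ± 0.21, SE, edgeR adjusted p = 0.0328). The controls of Mrps21 lay far apart, and without control replicate 1 its adjusted p was 0.345. Without control replicate 1 or 2, the adjusted p was 0.249 or 0.257 for Mrps6, 0.215 or 0.170 for Mrps12, 0.192 or 0.182 for Mrps24, and 0.271 or 0.398 for Mrps36.

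Mrps11 and Mrpl46 lie head to head on chromosome 7, so that a gene of each subunit starts from the same stretch. Mrps11 (chr7:78783119-78792989, plus strand) was read at 10.5 and 10.0 CPM in control, 21.8, 18.7 and 21.9 CPM in KO1, and 18.4, 19.3, 19.4 and 14.2 CPM in KO2. Mrpl46 (chr7:78775236-78783531, minus strand) was read at 12.8 and 12.9 CPM in control, 28.8, 25.9 and 23.3 CPM in KO1, and 23.5, 22.2, 27.7 and 20.9 CPM in KO2. Both rose in all 7 KO libraries, with log2 fold changes of 0.89 ± 0.22 and 0.93 ± 0.19 (SE, edgeR adjusted p = 0.0218 and 0.0123). Without control replicate 1 or 2 the adjusted p of Mrps11 was 0.186 or 0.209. They share 7.97% of the exon bases of Mrps11 and 12.2% of those of Mrpl46, and without a stated strand setting for the counting, reads from the shared bases cannot be assigned to either gene with certainty. In all, 32 members share exon bases with another gene, 28 of them with a gene on the opposite strand.

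Only 2 members were called lower, and both were in the large subunit. Mrpl24 (chr3:87919506-87923672), the relative of a bacterial protein that binds early in assembly of the large subunit, was read at 76.9 and 94.2 CPM in control, 60.3, 61.8 and 57.8 CPM in KO1, and 28.8, 38.5, 33.6 and 34.0 CPM in KO2. The groups formed 3 separate levels, control above KO1 above KO2. The log2 fold change was -0.93 ± 0.30 (SE, edgeR adjusted p = 0.0623) in KO, -0.51 for KO1 alone (adjusted p = 0.0546) and -1.34 for KO2 alone (adjusted p = 0.00104). The call for KO1 alone was lost when KO1 replicate 1, 2 or 3 was left out. KO2 was lower than KO1 by a log2 difference of -0.83 (adjusted p = 0.0102). Of its exon bases 26.3% are shared with Rrnad1, which did not pass the test (log2 fold change -0.29, edgeR adjusted p = 0.343).

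Mrpl9 (chr3:94443318-94451130), the relative of the bacterial protein L9, was read at 99.8 and 125 CPM in control, 81.4, 71.9 and 84.7 CPM in KO1, and 89.0, 92.9, 67.4 and 79.6 CPM in KO2. KO1 and KO2 overlapped and both lay below control (log2 fold change -0.47 ± 0.16, SE, edgeR adjusted p = 0.0734). Without control replicate 1 or 2, the adjusted p was 0.234 or 0.397 for Mrpl24 and 0.192 or 0.539 for Mrpl9, whose log2 fold change without control replicate 2 was -0.30. Mrpl9 also lost its call without any KO1 library, at an adjusted p of 0.102 to 0.111. The other members with the lowest fold changes were Mrpl35 (-0.24), Mrps31 (-0.41), Mrps22 (-0.32) and Mrps2 (-0.20), none of which passed (edgeR adjusted p = 0.310, 0.205, 0.354 and 0.633).

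Mrpl24 and Mrpl9 both lie on chromosome 3, as do Mrps21, which was called higher, and Mrps28. On this chromosome the control libraries differed from each other. Control replicate 2 was above control replicate 1 for all 5 members tested on that chromosome, by a median of 0.34 on the log2(CPM + 1) scale. The median over all 816 genes tested on chromosome 3 was 0.25, while on the other 19 chromosomes, X included, the median difference between the controls was at most 0.06 in size. Libraries of both clones also had shifts of whole chromosomes: relative to the control mean, the median gene of a chromosome was off by 0.2 or more in 21 of 60 cases in KO1 libraries and 15 of 80 in KO2. On chromosome 11, which holds the most members, it was at -0.23 in KO2 replicate 2 and 0.27 in KO2 replicate 3. On chromosome 7 it was at 0.30, 0.34 and 0.12 in the KO1 libraries, and on chromosome 4 at -0.34, -0.34 and -0.32. The median gene of chromosome 9 was at -0.37 in KO2 replicate 3, that of chromosome 13 at 0.36 in KO2 replicate 4, and that of chromosome 17 at 0.20 in KO2 replicate 1. The lowest Mrps22 level (chromosome 9, 19.0 CPM) was in KO2 replicate 3, and the highest Mrps36 level (chromosome 13, 12.1 CPM) in KO2 replicate 4. The part of these shifts in the members' differences was not tested gene by gene.

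With the median of all genes on its chromosome subtracted, the log2 fold change in KO was -0.86 for Mrpl24 and -0.40 for Mrpl9. Over the 76 members, the median after this subtraction was 0.36 in KO, 0.51 in KO1 and 0.26 in KO2, against 0.41, 0.58 and 0.33 without it, and 66, 69 and 61 members were above 0. The direction was the same for each comparison. These subtractions were chosen after the values were seen. By chromosome, the members' median was 0.91 on chromosome 7 (6 members, all genes 0.26), 0.62 on chromosome 11 (11 members, all genes 0.13), 0.67 on chromosome 19 (5 members, all genes 0.26) and 0.14 on chromosome 3 (5 members, all genes -0.07).

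**Figure D4:**
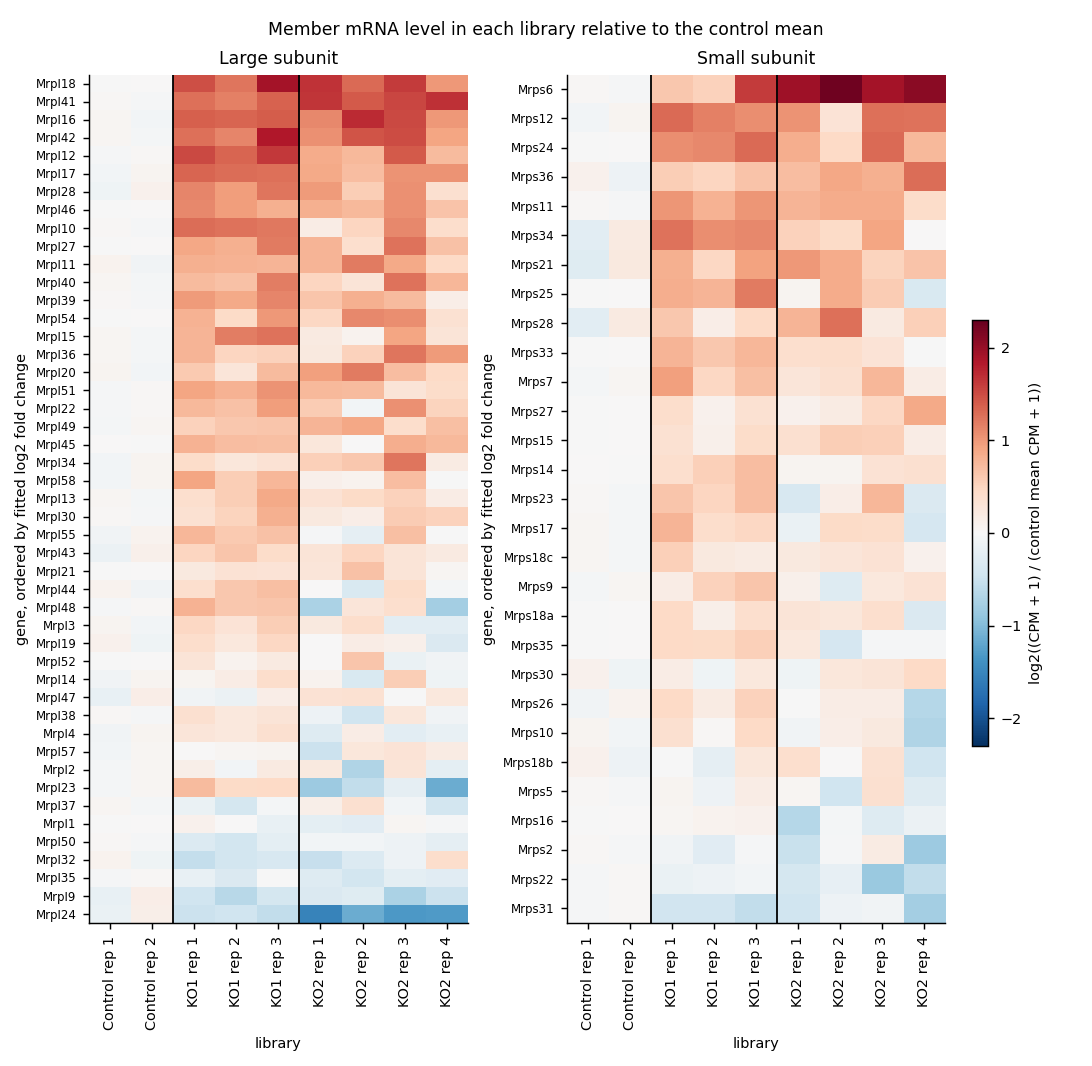
Level of each member in each library on the log2(CPM + 1) scale relative to the control mean (red higher, blue lower), with large subunit genes at left and small subunit genes at right, ordered by fitted fold change. Vertical lines part the control, KO1 and KO2 libraries. The KO1 libraries have 58 to 65 members above both controls, and KO2 replicate 4 has the fewest members above both controls (43 of 76). The same counts over all genes were not made.

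The clones were then compared with the same controls. In KO1, 33 members were called higher and 2 lower, where 15.9% and 15.7% of all genes were called. In KO2, 25 were called higher and 3 lower, where 16.5% and 15.0% of all genes were called. Because the clones share their controls, these counts are not independent of each other. In KO1 the large subunit gave 23 higher and 2 lower (median log2 fold change 0.61) and the small subunit 10 higher and none lower (0.47), with none lower at an unadjusted p under 0.05 by edgeR and none called lower by DESeq2. In KO2 the large subunit gave 18 higher and 2 lower (0.38), and the small subunit 7 higher and 1 lower (0.25), Mrps22. Over the settings run, the adjusted p of Mrps22 in KO2 lay between 0.0327 and 0.357 (edgeR or DESeq2). When KO1 replicate 1, 2 or 3 was left out, no member was called lower in KO1 (edgeR). Over all genes, 3643, 3452 and 3298 were then called in KO1 in either direction. Without control replicate 1 or 2, the members called higher numbered 12 or 13 in KO1 and 6 or 7 in KO2, and those called lower 0 in KO1 and 1 in KO2 (edgeR). Over all genes, 4.54% or 5.35% were then called higher in KO1 and 4.03% or 4.30% in KO2, and 4.92% or 5.74% lower in KO1 and 4.69% or 4.84% in KO2. At an unadjusted p under 0.05, 2 members were lower in KO1 without control replicate 1 and none without control replicate 2. The share of all genes at this unadjusted p is not given here.

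By library, 63, 58 and 65 of the 76 members were above both controls in the KO1 libraries, and 53, 54, 60 and 43 in the KO2 libraries. KO2 replicate 4 also had the most members below both controls, 29, against 9 to 12 in KO1 libraries. Its small subunit genes were split evenly, 14 above and 14 below. The share of all genes outside both controls in a single library was not counted. All KO1 libraries were above both controls for 75% of members and 33.2% of all genes tested. They were all below for 8 members and 5061 of 15023 genes. All KO2 libraries were above for 46.1% of members and 22.8% of all genes, and below for 8 members and 3622 genes. The share of counts that mapped to several places was 24.1% in both controls, 25.2 to 26.1% in KO1 and 26.3 to 27.5% in KO2 libraries. Its part in the members' levels was not tested.

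Between the clones, 8 members were lower and 1 was higher in KO2 than in KO1, where 9.43% of all genes were called lower and 10.2% higher. The median log2 difference over members was -0.18 and 53 of the 76 were below 0. The median was -0.28 without KO2 replicate 3 and -0.14 without KO2 replicate 4, the extremes when 1 library was left out. The large subunit gave 7 of the lower calls and the small subunit the others, Mrps6 being the member that was higher. Without KO2 replicate 3, 16 members were called lower, and calls over all genes in either direction rose from 2944 of 15023 to 4077 of 14828. Without either control or without any KO1 library, 2 or 3 members were called lower, and without KO2 replicate 1 or 4, 3 (edgeR). In these fits calls over all genes fell to between 874 (without KO1 replicate 2) and 2519 (without KO2 replicate 4).

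Mrpl23 (chr7:142532686-142540747), whose bacterial relative lies at the exit of the peptide tunnel, moved furthest between the clones. It was read at 8.17 and 8.69 CPM in control, 14.7, 11.8 and 11.9 CPM in KO1, and 4.30, 5.35, 7.21 and 3.29 CPM in KO2. KO1 lay above control and KO2 below it, without overlap. The log2 difference of KO2 from KO1 was -1.34 ± 0.28 (SE, edgeR adjusted p = 0.0197), although neither clone differed from control past the threshold (KO1 0.60, adjusted p = 0.234, and KO2 -0.74, adjusted p = 0.118). Mrpl48 (log2 difference -0.84) and Mrps34 (-0.67) had the next largest differences of their subunits apart from Mrpl24 and Mrps6, and did not pass (edgeR adjusted p = 0.116 and 0.105). Of the exon bases of Mrps34, 77.8% are shared with Mapk8ip3 and Nme3.

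Members that are related to each other, or that do not sit in the small subunit, were also compared. Mrps18a, Mrps18b and Mrps18c are paralogues that occupy different places in the ribosome. Their log2 fold changes were 0.26, 0.08 and 0.30, and none passed the test (edgeR adjusted p = 0.441, 0.863 and 0.332). Mrps30 was at 0.20 (adjusted p = 0.549). Among the genes with the most counts per kb, Mrpl2 (0.01), Mrpl52 (0.17) and Mrps28 (0.64) did not pass either (edgeR adjusted p = 0.977, 0.629 and 0.179). For Mrps28 in KO2 alone, the log2 fold change lay between 0.54 and 1.04 over the settings run. Its adjusted p there lay between 0.0365 and 0.437 (edgeR or DESeq2).

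Other genes of mitochondrial translation came from lists of symbols. Of 5 mitoribosome proteins with other symbols that were found, none was called in KO by edgeR or DESeq2 and none had an unadjusted edgeR p under 0.05, and their median log2 fold change was 0.19. Ptcd3 (0.38) and Dap3 (-0.00365) were their extremes. Of 28 assembly and rRNA-handling genes, 3 rose and 2 fell (10.7% and 7.14%, median 0.05). Over all genes tested, 11.9% rose and 10.7% fell in KO. Mpv17l2, an assembly factor, rose from 15.3 and 16.5 CPM to 30.4 to 52.7 CPM (log2 fold change 1.17, edgeR adjusted p = 0.0112). Mterf3, a factor of mitochondrial transcription and of ribosome assembly, fell from 30.5 and 28.5 CPM to 15.9 to 20.7 CPM (-0.67, edgeR adjusted p = 0.0241). Of 16 translation factors, 2 rose and 1 fell (12.5% and 6.25%, median 0.15). Tufm, the elongation factor that brings tRNAs to the ribosome, rose from 28.9 and 27.5 CPM to 99.7 to 108 CPM in KO1 and 56.0 to 73.2 CPM in KO2 (1.51, edgeR adjusted p = 0.0105), and the recycling factor Mrrf fell (-0.61, adjusted p = 0.0504). Of 17 aminoacyl-tRNA synthetases of mitochondria, which charge tRNAs, 2 rose (11.8%) and none fell by edgeR (median 0.47). DESeq2 called 7 higher and none lower, and its share over all genes is not given here. In this list and in those of mitochondrial mRNAs and complex I, no gene was lower at an unadjusted edgeR p under 0.05 or called lower by DESeq2.

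Of 7 mRNAs encoded by mitochondrial DNA that could be tested, of 13, 4 rose and none fell, with a median log2 fold change of 0.86. They did not move alike, since mt-Nd1 rose (0.99, edgeR adjusted p = 0.0218) and mt-Co1 was at -0.16 (adjusted p = 0.716). Among 14 regulators, 1 rose and 1 fell (7.14% each), where 11.9% of all genes tested rose and 10.7% fell. Myc, a transcription factor that activates ribosome genes, was read at 506 and 457 CPM in control, 209, 284 and 313 CPM in KO1, and 138, 197, 245 and 153 CPM in KO2. It fell in every KO library (log2 fold change -1.13 ± 0.27, SE, edgeR adjusted p = 0.0205). Nrf1 (0.03), Gabpa (0.13), Yy1 (-0.34), Tfam (0.23), Ppargc1b (0.28) and Pprc1 (0.25) did not pass (edgeR adjusted p = 0.911, 0.707, 0.146, 0.544, 0.612 and 0.583). Ppargc1a was at 0 in both controls and at most 1.96 CPM in KO libraries.

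Among 36 nuclear genes for complex I subunits, the respiratory complex that receives many products of the mitochondrial ribosome, 16 rose and none fell (median log2 fold change 0.55). The share that rose was 44.4%, where 11.9% of all genes tested rose and 10.7% fell. Ndufa4, whose protein is a subunit of cytochrome c oxidase despite its symbol, was highest (1.55, edgeR adjusted p = 0.00200), and Ndufa6 was lowest (-0.39, not called). Of 95 genes that match the symbol pattern of cytosolic ribosomal proteins, 2 rose and 10 fell (2.11% and 10.5%), with a median of -0.02. The pattern also takes kinase genes such as Rps6ka4. Without these and Rps19bp1, 1 of 84 rose (Rps2, 0.66) and 10 fell (11.9%), Rpl24 by the most (-2.07), with a median of -0.01.

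**Figure D5:**
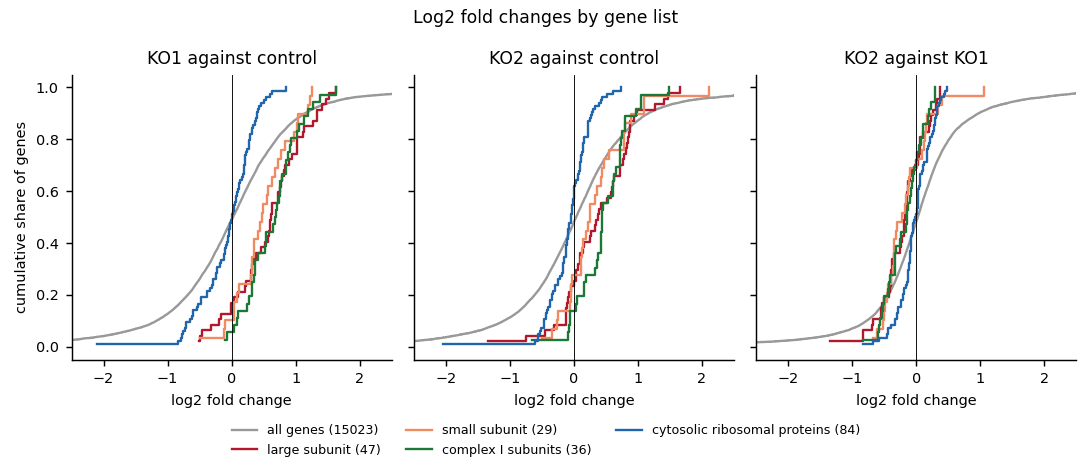
Cumulative share of genes (vertical axis) by log2 fold change (horizontal axis) for KO1 against control, KO2 against control and KO2 against KO1, for all genes tested (grey) and for 4 lists, with the number of genes in brackets. The curves of both subunits and of complex I lie mostly to the right of the cytosolic ribosomal proteins (kinases left out) against control, with medians of 0.61, 0.47 and 0.69 in KO1.

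ChIRP-seq, in which biotin-labelled DNA oligos capture an RNA with the chromatin it touches, gave peak lists for oligo pools against MaTAR25 in 4T1 cells (even, odd and all oligos) and for all oligos in MMTV-Neu-NDL mammary tumor cells, which the labels call primary and the study's methods list as a cell line. Each list pools replicates, so no spread between replicates can be given. A peak within the gene or the 1 kb before it was found for 17 of the 77 members in the even list (22.1%), 15 in the odd list (19.5%), 20 in the total list (26.0%) and 20 in the NDL list (26.0%), where 51.8%, 51.2%, 58.9% and 57.9% of 12546 protein-coding genes tested had one. Members are short, with a median gene length of 7.89 kb against 23.6 kb, and the difference was not adjusted for length. The even list holds no peak on chromosome 3, where 5 members lie.

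The member with the highest-scoring peak was Mrpl42 in the even, total and NDL lists, and Mrps5 in the odd list. Its peak in the second intron (chr10:95498510-95499260, GRCm38) had a score of 841 in the total list, rank 100 of 76806. It scored 703 in the NDL list (rank 138), 455 in the even list (rank 303) and 154 in the odd list (rank 9550). The 300 bases of this peak from chr10:95498590-95498889 are printed on the plus strand to show a match to the capture oligos, in capitals.
Mrpl42 peak: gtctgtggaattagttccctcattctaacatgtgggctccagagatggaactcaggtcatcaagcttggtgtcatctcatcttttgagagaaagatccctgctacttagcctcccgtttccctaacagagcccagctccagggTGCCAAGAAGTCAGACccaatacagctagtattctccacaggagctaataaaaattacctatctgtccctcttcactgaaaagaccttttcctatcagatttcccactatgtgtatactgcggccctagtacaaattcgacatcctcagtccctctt

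The capitals are 16 bases identical to part of the 20-base MaTAR25 oligo 2, read on the other strand. Oligo 2 is even-numbered, and the peak is also in the odd list. In the total list, 10 of 33 member peaks contained a stretch of 12 or more bases identical to 1 of the 14 oligos on either strand, as did 24.2% of all peaks and 80.6% of the 500 highest-scoring peaks. Mrps33 and Mrps6 had peaks with a match of 14 bases, to oligo 12 and oligo 5, and Mrps28, Mrps9 and Mrps25 each had one of 13 bases to oligo 4. In the total list these peaks scored 345 for Mrps33, 214 for Mrps6, 458 for Mrps28, 270 for Mrps9 and 62.0 for Mrps25. Oligos 4 and 12 are even-numbered and oligo 5 is odd-numbered. Peaks with the oligo 4 match were also in the odd list for Mrps28 (324) and Mrps9 (241). A peak of Mrps6 with the oligo 5 match was also in the even list (56.5). Other member peaks had no such match, among them those of Mrps5 (491) and Mrpl1 (252) in the odd list, and those of Mrpl22 (191) and a second of Mrps28 (210) in the total list. The part of such matches in the peak scores was not tested. In KO, Mrps6 rose, and Mrps28, Mrps33, Mrps9 and Mrps25 did not pass. Of the 5 large subunit genes with the highest fold changes, Mrpl42 had a peak in each list and Mrpl12, Mrpl16, Mrpl18 and Mrpl41 had none in any.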

How the data were processed

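Polyadenylated RNA of 9 libraries was sequenced. The authors aligned the reads with STAR and counted them per gene with HTSeq on GENCODE genes (build mm10), and deposited raw counts whose strand setting no source used here states. ChIRP-seq peak lists hold a score for each peak, which the authors computed with HOMER against a Ppib pulldown after Bowtie2 alignment, on pooled replicates. Members and gene lists were chosen with earlier results of these data known.

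The file of KO2 replicate 2 lists each gene 3 times with equal counts, which were used once. Unassigned counts stayed out of library sizes. Genes were filtered with edgeR's filterByExpr, normalised by TMM, and tested by the edgeR quasi-likelihood method (edgeR 4.0.16, limma 3.58.1, R 4.3.3), with 1 KO group against control, or with 3 groups for the clones. Adjusted p (Benjamini-Hochberg) over all 15023 genes under 0.1 was called. CPM used TMM library sizes. Exact permutation tests used log2(CPM + 1) in scipy 1.17.1. Scripts were tested on simulated data. Named genes were the 5 highest and 3 lowest fold changes, the 2 largest clone differences and the 2 with most counts per kb in each subunit, all members called lower, and a few fixed by name. A result that the rule names in another list is not reported here. Mrpl46, Slc5a3, Rrnad1, Mrpl42's peak, the oligo matches, the chromosome medians and the cytosolic list without kinases were chosen after values were seen. Alternatives were DESeq2 1.42.0, other scalings and filters, a replicate block, left-out libraries and another threshold. Depth was 25367211 to 61110585 gene counts per library.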

Additional observations from a re-analysis of the deposited data

Results flagged for a closer look

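Within KO2, the group of 4 libraries in which single libraries were examined, replicate 3 stood apart for Mrpl12 (106 CPM against 65.8 to 72.2 CPM in the other 3), and replicate 2 for Mrpl52, at 75.4 CPM. Of 62 such examinations, chance alone would be expected to pick about 1 in 20. Mrpl52 did not pass the test in KO.

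The difference between the clones, tested as KO2 against KO1 in the edgeR fit of 3 groups, passed the threshold for Mrpl12 (log2 difference -0.54), Mrpl23 (-1.34), Mrpl24 (-0.83) and Mrps6 (1.06) among the named members. That of Mrpl12 was lost when any library other than KO2 replicate 3 was left out. Mrpl23 and Mrps6 were named for their large differences between the clones in these same libraries, so their passing is not independent support. Over the 76 members, 10.5% were called lower and 1.32% higher in KO2 than in KO1, against 9.43% and 10.2% of all genes.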

How the results depend on the processing

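The median over members kept its direction in each comparison under every setting run. Leaving out 1 library gave 3 to 29 members called higher and 0 to 2 lower in KO, 12 to 39 and 0 to 3 in KO1, 6 to 27 and 1 to 3 in KO2, and 0 to 1 higher and 2 to 16 lower in KO2 against KO1, and the low counts of members called higher against control came from leaving out either control library. The subunit difference in medians ranged from 0.11 to 0.22 in KO and 0.12 to 0.22 in KO1. Replicate numbers did not pair the libraries (correlations of same-numbered deviations -0.149 to 0.0429). A replicate block used 6 libraries for KO and 8 for the clones. With it, 13 members rose and 0 fell in KO, 0 fell in KO1, 1 fell in KO2 and 3 were lower in KO2 against KO1. The subunit differences were then 0.11 in KO1 and 0.032 in KO2. Over all genes, the block called 1544 of 14368 in KO in either direction, where the main fit called 3392 of 15023. For the clones it called 4008 in KO1, 3690 in KO2 and 1742 between the clones, of 14866 genes. The same libraries without the block, a fit added after seeing the data, gave 0 lower in KO, 1 in KO2 and 3 between the clones. Over all genes, 2733 of 14368 were then called in KO in either direction. Of 14866 genes, 4689 were called in KO2 and 2519 between the clones.

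Without a filter on low counts, 1, 0 and 1 members were lower in KO, KO1 and KO2. Over all genes, 2738, 4417 and 4384 of 26437 were then called in either direction. At a threshold of 0.05, the members called lower numbered 0, 0 and 1, and 2 between the clones. Over all genes, 2235, 3342 and 3303 of 15023 were then called in either direction, and 1643 between the clones. Fitting only the groups compared gave 52 higher and 5 lower in KO1, where 27.4% and 26.6% of all genes were then called. It gave 1 lower in KO2 and 2 between the clones, where 11.4% and 6.56% of all genes were called lower. DESeq2 gave 2 higher and 13 lower between the clones, where it called 3458 of 15023 genes in either direction. Subunits by structure differed by 0.12 in KO1 and 0.14 in KO2 against KO1. For peaks, the nearest promoter gave 31 (even), 28 (odd) and 34 (total) members, and a score of at least 100 gave 5, 8, 6 and, in NDL, 6. The same counts over all genes were not made, so these member counts have no share beside them.

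Values near 0 changed sign. Mrpl2 in KO was at -0.018 with upper-quartile scaling, -0.000791 with at least 10 counts in every library, -0.094 with the block, -0.061 without it on the same libraries, and -0.042 to 0.10 with 1 library left out. Mrpl23 in KO was at 0.10 with and without the block, and at -0.21 to 0.13 with 1 library left out. Mrps18b in KO was at -0.027 to 0.21 with 1 library left out, and Mrpl48 in KO2 at -0.35 to 0.061, and at 0.061 in the libraries of the block. The causes were not tested.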
